A study of Mus musculus with 12 samples.

Results

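The transcripts described here come from a list of 34 mouse genes taken as p53 targets, among them Ddb2, known as a target from human cells. They were followed across liver arrays of mice with and without the copper transporter gene Atp7b. Members were taken by name from the list, each through the Affymetrix probe set that is annotated to exactly 1 gene and had the highest mean over the 12 arrays. For 32 of the 34 genes, out of 18193 genes measured this way, such a probe set was found; Bax and Gdf15 were not analysed here. The list was divided by role into 7 arrest genes, 13 measured apoptosis genes of 14, 5 repair genes, 4 genes that feed back on p53 and 3 measured genes of 4 that act on growth and metabolism. It was chosen with earlier results of these data known. Its counts beside the shares of all genes are therefore not an independent test.

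The 12 arrays fell into 3 groups of 4: wild type C57Bl/6 mice, Atp7b-/- mice on C57Bl/6, and Atp7b-/- mice on C57Bl/6 that received supplemental zinc. All mice were 3 months old, the tissue was liver, and neither the wild type nor the untreated mutant group received an agent. Zinc was tested only in mutant mice, so no group shows zinc in wild type liver. No dose or length of zinc treatment is stated in the sources used here, nor whether males or females were taken. Zinc was given to 4 mutant mice, as many as that group has arrays; the labels number the replicates without naming the animals, so part of the spread that the p-values measure may be technical.

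p53 is a transcription factor that cells hold at a low level and stabilise after DNA damage and other stress; it then binds pairs of short DNA elements near its target genes and raises their transcription. Some targets stop the cell cycle, some promote cell death, some repair DNA, and some, Mdm2 above all, return p53 to its low level. Atp7b moves copper into bile in hepatocytes, and its loss causes copper to build up in the liver, as in human Wilson disease, for which zinc is one of the treatments.

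The 250 bases upstream of the start site are shown for 5 targets that rose in the mutant liver and hold a p53 decamer, the 10-base unit that pairs up in a p53 response element; it was searched by its consensus, which reads the same on both strands. The sequences come from RefSeq on GRCm38.p6 and run 5′ to 3′ on the gene's strand, with the decamer in capitals. They lie at chr17:29090729-29090978 (+) for Cdkn1a, chr11:40755287-40755536 (-) for Ccng1, chr10:117710759-117711008 (-) for Mdm2, chr3:137623422-137623671 (+) for Ddit4l and chr7:78895808-78896057 (+) for the downstream of the start sites of Aen.
Cdkn1a: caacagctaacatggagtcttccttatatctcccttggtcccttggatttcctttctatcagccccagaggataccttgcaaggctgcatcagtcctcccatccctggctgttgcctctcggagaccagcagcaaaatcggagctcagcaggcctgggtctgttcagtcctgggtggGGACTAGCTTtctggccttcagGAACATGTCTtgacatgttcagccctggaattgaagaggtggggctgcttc
Ccng1: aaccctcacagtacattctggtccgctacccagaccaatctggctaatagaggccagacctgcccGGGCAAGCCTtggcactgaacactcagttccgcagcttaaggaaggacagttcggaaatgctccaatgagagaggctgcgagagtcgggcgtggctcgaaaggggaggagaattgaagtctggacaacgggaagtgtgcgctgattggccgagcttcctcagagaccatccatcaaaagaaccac
Mdm2: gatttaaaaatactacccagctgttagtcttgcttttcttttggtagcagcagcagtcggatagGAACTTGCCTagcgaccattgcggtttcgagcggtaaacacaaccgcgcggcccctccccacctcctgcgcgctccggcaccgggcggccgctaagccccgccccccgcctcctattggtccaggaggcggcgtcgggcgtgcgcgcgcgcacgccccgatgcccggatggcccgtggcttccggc
Ddit4l: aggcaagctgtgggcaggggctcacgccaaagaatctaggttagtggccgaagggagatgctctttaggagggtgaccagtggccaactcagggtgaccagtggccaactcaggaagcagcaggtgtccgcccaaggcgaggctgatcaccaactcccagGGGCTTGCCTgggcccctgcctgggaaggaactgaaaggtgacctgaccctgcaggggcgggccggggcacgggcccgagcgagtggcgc
Aen: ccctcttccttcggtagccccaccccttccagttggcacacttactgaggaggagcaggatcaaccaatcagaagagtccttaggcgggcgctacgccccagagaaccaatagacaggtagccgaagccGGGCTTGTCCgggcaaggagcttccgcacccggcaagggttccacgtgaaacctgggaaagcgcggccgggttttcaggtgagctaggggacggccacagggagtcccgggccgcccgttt

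In windows from 250 bases before to 50 after a start site, 25 of the 34 listed genes had an entry, with 34 windows in all. A p53 decamer was present in 12 of these 34 windows, 35.3%, against 8.36% of all 32851 windows. By gene it was present in 11 of 25, 44%, against 9.55%, since overlapping windows of Aen hold the same decamer. A pair of decamers within 13 bases of each other, the spacing used for a full element, were found in the listed genes only at Cdkn1a, where 12 bases separate GGACTAGCTT, starting 73 bases upstream, from GAACATGTCT, starting 51 bases upstream; 0.0731% of all windows held such a pair. The decamer read GGGCTTGCCT at both Ddit4l and Gtse1, GGGCTTGTCC at Aen, GGGCTAGCCC at Gadd45a, GGGCATGCCC at Ei24 and GAACTAGCCT at Polk, all of which rose in the mutant. It read AAGCTTGTTT at Sesn1, which was not called, and AGGCAAGCTT at Bax. Ddias, the target with the largest change below, held none in its window. Of the genes with a decamer, Cdkn1a, Gtse1, Polk and Sesn1 also have a window without one. The distances given for Cdkn1a are from the more upstream of its start sites. The letters CCAAT were in 18 of the 34 windows, 52.9% against 37.4% of all windows, and TATAAA in 5.88% against 13.6%. TTTGAA was in 17.6% against 17.9%, and TTCGAA in 5.88% against 1.56%, each searched on both strands. By gene the shares were 56% against 41.1% for CCAAT, 8% against 15.7% for TATAAA, 24% against 20.2% for TTTGAA and 4% against 1.8% for TTCGAA. Psrc1 alone held TTCGAA, at 1 site that lies in 2 overlapping windows. These are descriptions of letters in a short window, not of bound sites.

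Levels below are log2 values as deposited, given in the order of replicates 1 to 4; they rank arrays for 1 gene and do not rank genes against each other. A gene is called when its limma p, adjusted by Benjamini-Hochberg over all 18193 genes of the comparison, is under 0.05, and rose or fell is used only for called genes. Before the targets, the labels were checked on Atp7b, which read 8.51, 8.59, 8.61 and 8.69 in wild type, 7.17, 7.25, 7.11 and 6.91 in Atp7b-/-, and 6.85, 6.92, 6.57 and 6.98 with zinc. The mutant groups lay under every wild type array, with a log2 change of -1.49 (SE 0.10, adjusted p = 2.04e-07) without zinc and -1.77 with it (adjusted p = 1.22e-07). No source used here states where the Atp7b probes lie relative to the altered stretch of the gene.

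In the Atp7b-/- liver, most p53 targets were higher than in wild type liver. Of the 32 measured targets, 23 rose, 1 fell (Ddb2) and 8 were not called, where 14.3% of all genes rose and 10.3% fell. The median log2 change over the targets was 1.31, against -0.05 over all genes. For 22 targets every mutant array lay above every wild type array, and for 1 every mutant array lay below, where this held for 14.3% and 12.1% of all genes. Called rises of at least 1 log2 unit were seen in 17 targets and in 3.03% of all genes, and called falls of that size in 0 targets and in 0.572% of all genes. In either direction 24 targets were called, against 24.6% of all genes. All 4 feedback genes rose, with a median change of 2.07, and so did 5 of 7 arrest genes (median 2.05), 9 of 13 apoptosis genes (median 0.53), 3 of 5 repair genes (median 0.38) and 2 of 3 metabolic genes (median 0.87). When each gene was averaged over its probe sets instead, the median over the targets was 0.88 and that over the arrest genes 1.03. Of the 24 calls, 21 held in each of the 25 alternative settings other than a required change of 1 log2 unit, under which 10 held. Ddb2 held in the same settings except that which sets aside probe sets with names ending in _s_at, _x_at or _a_at. That setting leaves Ddb2 none and so gives no value. Bbc3 and Mdm2 are described with their roles.

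**Figure D1:**
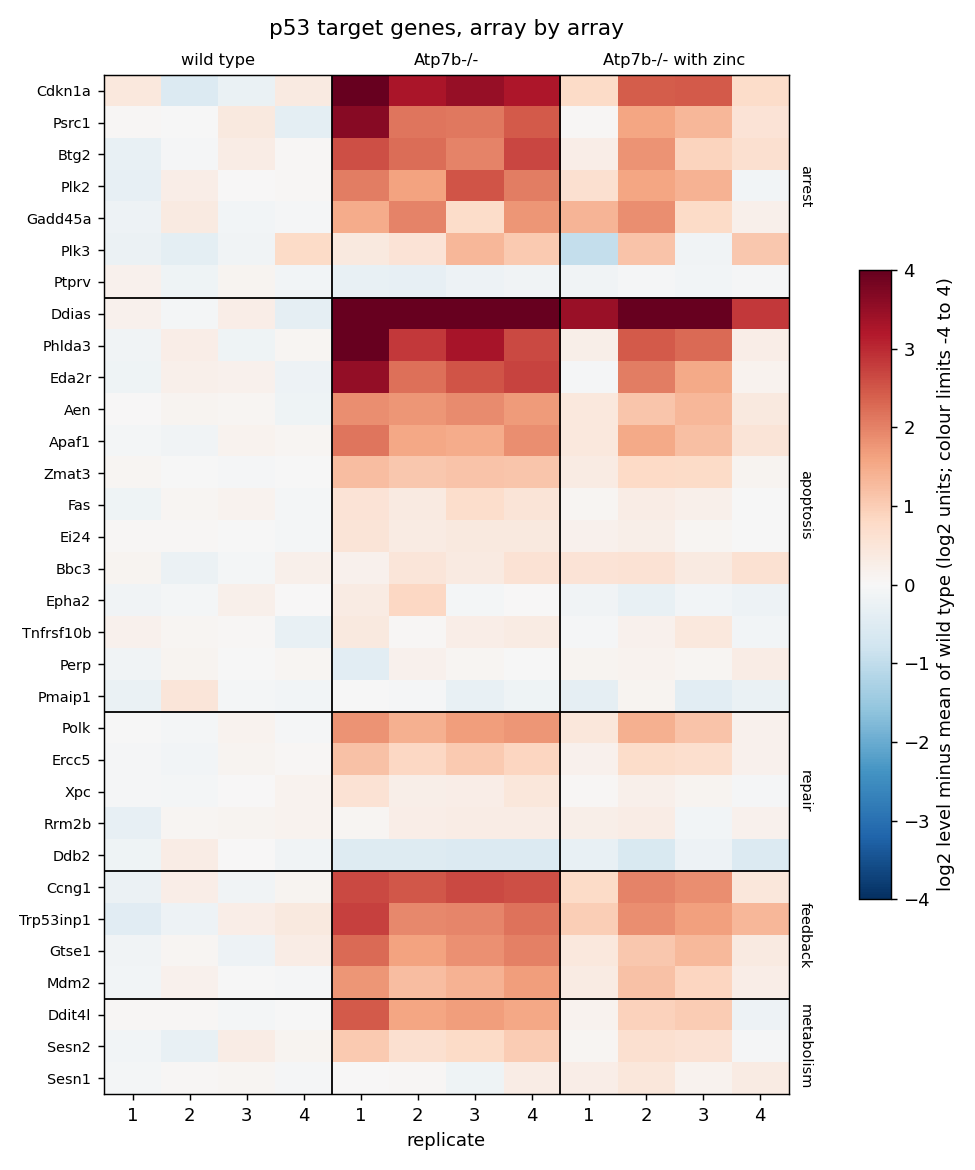
Each row is 1 of the 32 measured p53 targets and each column 1 array, in 3 groups of 4 numbered by replicate; colour is the log2 level minus the wild type mean of that gene, with colours limited to the range from -4 to 4. Most rows turn red in the 4 Atp7b-/- arrays, stay red in zinc replicates 2 and 3 and are paler in zinc replicates 1 and 4, while Ddb2 is blue in the mutants.

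**Figure D2:**
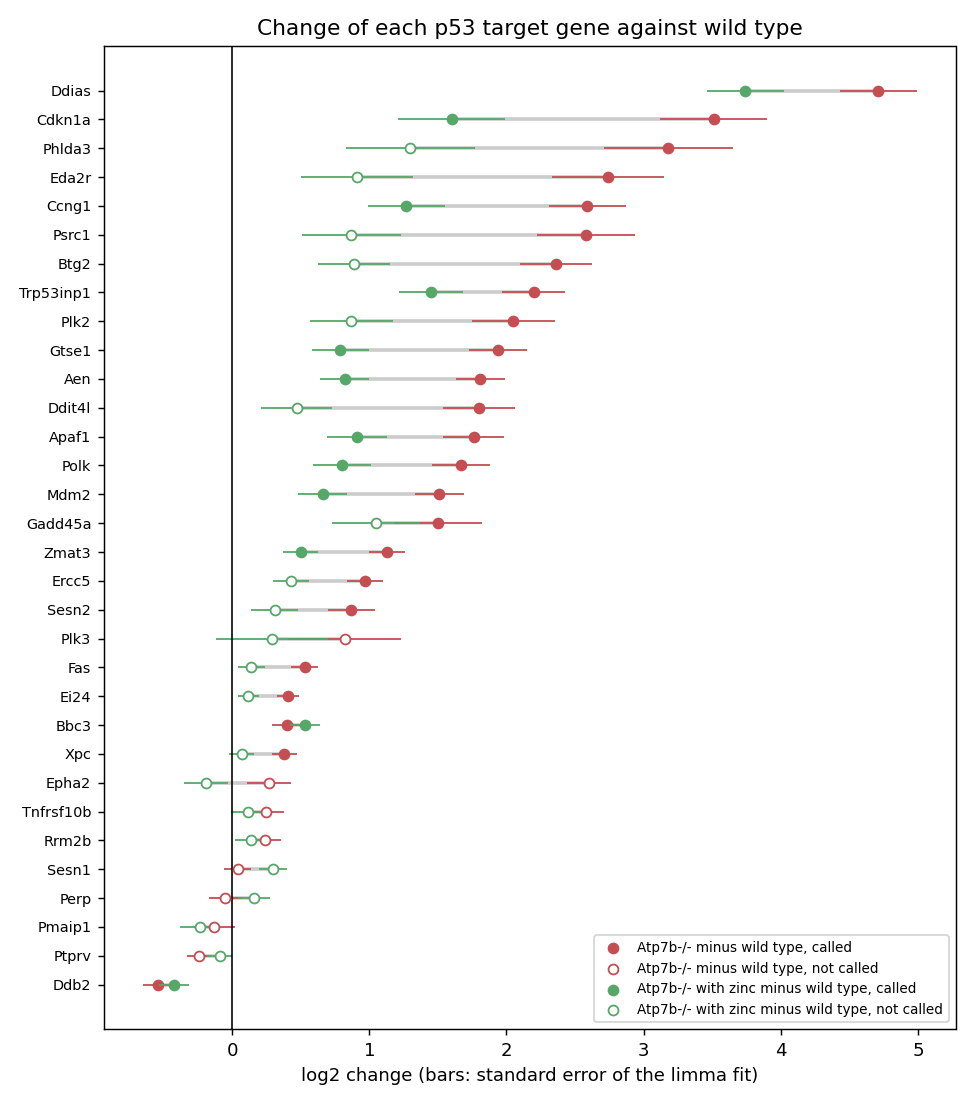
Points show the log2 change of each target against wild type, without zinc (red) and with zinc (green), with bars for the standard error of the limma fit and filled points for called changes. For 22 of the 23 targets that rose, the zinc value lies between wild type and the untreated mutant, and Bbc3 is the exception. The zinc mean also lies between them for 2298 of all 2608 genes that rose in the mutant.

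Among the arrest genes, Cdkn1a, which encodes the cyclin-dependent kinase inhibitor p21, changed most. It read 8.28, 7.29, 7.59 and 8.21 in wild type, 11.88, 11.11, 11.34 and 11.09 in Atp7b-/-, and 8.61, 10.26, 10.31 and 8.58 with zinc. All 4 untreated mutant arrays were above all others, and all 4 zinc arrays lay between the groups, replicates 1 and 4 close to the highest wild type array. The rise in the mutant was 11.4-fold (log2 3.51, SE 0.39, adjusted p = 2.36e-05), and the second probe set gave 2.75. With zinc the level was 3.77-fold lower than without (log2 -1.92, adjusted p = 0.0102) and 3.02-fold above wild type (adjusted p = 0.0228). The call against wild type was lost without wild type replicate 2 or 3 or zinc replicate 2 or 3. In the second probe set these differences were -1.27 (adjusted p = 0.105) and 1.49 (adjusted p = 0.0566), adjusted over all probe sets and not called.

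Btg2, an anti-proliferative protein that acts with the deadenylation machinery, read 6.64, 6.89, 7.22 and 6.96 in wild type, 9.49, 9.17, 8.90 and 9.60 in the mutant, and 7.18, 8.71, 7.81 and 7.58 with zinc. Its untreated mutant arrays stood above all others, and zinc replicate 1 lay inside the wild type range. It rose by 2.36 (SE 0.26, adjusted p = 2.36e-05) and fell by 1.47 with zinc (adjusted p = 0.0048). Psrc1, a microtubule-associated protein of the mitotic spindle, read 4.76, 4.70, 5.12 and 4.33 in wild type, 8.36, 6.86, 6.83 and 7.18 in the mutant, and 4.76, 6.32, 6.05 and 5.27 with zinc. Mutant replicate 1 was far above the other 3 mutant arrays, and zinc replicate 1 equalled wild type replicate 1. The change was 2.58 (SE 0.36, adjusted p = 0.000185) and, with zinc against without, -1.71 (adjusted p = 0.0127), while 2 dimmer probe sets of Psrc1 gave 0.46 and 0.04 in the mutant and were not called.

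Plk2, a polo-like kinase of the stress response, read 7.95, 8.53, 8.31 and 8.33 in wild type, 10.32, 9.88, 10.79 and 10.33 in the mutant, and 8.92, 9.87, 9.66 and 8.17 with zinc. Its groups did not overlap between wild type and mutant, but zinc replicate 2 came just under mutant replicate 2, and zinc replicate 4 lay in the wild type range. It rose by 2.05 (SE 0.30, adjusted p = 0.000298) and fell by 1.18 with zinc (adjusted p = 0.0356), a call lost without mutant replicate 1, 3 or 4 or zinc replicate 1 or 4. Its second, dimmer probe set went the other way in the mutant, by -0.47 (adjusted p = 0.00794). Gadd45a, a growth arrest and DNA damage protein, read 6.14, 6.70, 6.25 and 6.30 in wild type, 7.84, 8.34, 7.09 and 8.12 in the mutant, and 7.71, 8.22, 7.10 and 6.55 with zinc. It rose by 1.50 (SE 0.32, adjusted p = 0.00412), and its zinc arrays overlapped both other groups. Against the untreated mutant the zinc value was -0.45 (adjusted p = 0.448), not called, with zinc replicates 1 to 3 inside the mutant range.

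Plk3, another polo-like kinase, and Ptprv, a receptor-like tyrosine phosphatase known in mouse as a p53 target, were not called in any of the 3 comparisons. Plk3 ranged from 7.28 to 8.44 in wild type, 8.05 to 8.99 in the mutant and 6.72 to 8.81 with zinc, so its zinc arrays extended from below the wild type range into that of the mutant. The change of Ptprv in the mutant was -0.24 (SE 0.09, adjusted p = 0.0559), which was called in 5 of the 25 alternative settings, always as lower.

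**Figure D3:**
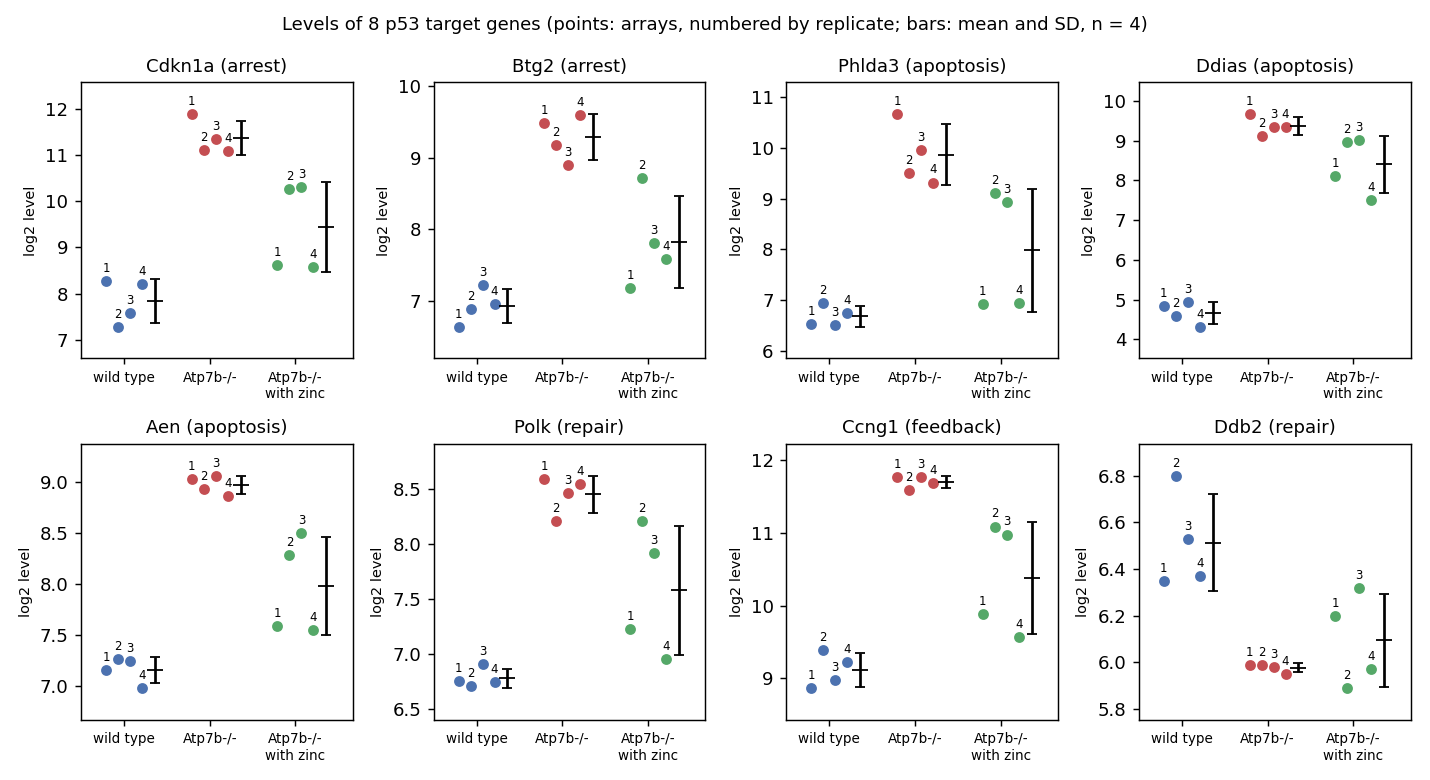
Points are the log2 levels of 8 p53 targets in single arrays, numbered by replicate, with the mean and SD (n = 4) of each group beside them; each panel has its own axis. In 7 of the panels the Atp7b-/- arrays stand above wild type and zinc replicates 2 and 3 stand above 1 and 4, and Ddb2 shows the opposite order of wild type and mutant.

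The apoptosis genes divided into a group with large rises and a group with little or no change. Ddias had the largest change of all 32 targets; its product, the DNA damage-induced apoptosis suppressor, is known to act against cell death and so does not do what the name of its list says. It read 4.83, 4.58, 4.93 and 4.32 in wild type, 9.67, 9.13, 9.35 and 9.34 in the mutant, and 8.12, 8.96, 9.03 and 7.50 with zinc. The 3 groups did not overlap, and zinc replicate 4 was the lowest mutant array. The rise was 26.1-fold in the mutant (log2 4.71, SE 0.28, adjusted p = 5.79e-08) and 13.4-fold with zinc (log2 3.74, adjusted p = 1.59e-06), and the second probe set, dim in wild type, rose in both as well. The difference between the mutant groups, -0.97, missed the threshold (adjusted p = 0.0567) and passed it in 10 of the 25 alternatives, including that without zinc replicate 2 and that without zinc replicate 3. The second probe set gave -1.20 for this difference, past the threshold (adjusted p = 0.00857, adjusted over all probe sets).

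Phlda3, a pleckstrin homology protein that represses Akt, read 6.53, 6.94, 6.50 and 6.75 in wild type, 10.67, 9.50, 9.97 and 9.32 in the mutant, and 6.92, 9.12, 8.94 and 6.93 with zinc. Zinc replicates 1 and 4 lay inside the wild type range and replicates 2 and 3 just under the mutant range. It rose 9.09-fold (log2 3.18, SE 0.47, adjusted p = 0.000261) and was 3.7-fold lower with zinc (adjusted p = 0.0285), a call that was lost without mutant replicate 1 or 3 or zinc replicate 1 or 4. Eda2r, a receptor for ectodysplasin A2, read 4.05, 4.44, 4.40 and 4.04 in wild type, 7.76, 6.42, 6.76 and 6.94 in the mutant, and 4.17, 6.29, 5.74 and 4.37 with zinc. Its wild type mean of 4.23 lay under 4.49, the lower quartile of the 1-gene probe sets in that group, so the rise of 2.74 (SE 0.41, adjusted p = 0.000305) is a lower bound. Again zinc replicates 1 and 4 were within the wild type range; the fall with zinc, 1.83 on the log2 scale (adjusted p = 0.0171), was lost as a call without zinc replicate 4.

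Aen, an apoptosis-enhancing nuclease, read 7.16, 7.26, 7.24 and 6.98 in wild type, 9.03, 8.93, 9.06 and 8.86 in the mutant, and 7.59, 8.28, 8.50 and 7.55 with zinc. The 3 groups were separate, and zinc replicates 1 and 4 were nearest to wild type. It rose by 1.81 (SE 0.18, adjusted p = 8.5e-06), fell by 0.99 with zinc (adjusted p = 0.00543) and stayed 0.82 above wild type (adjusted p = 0.0125). The other 3 probe sets of Aen rose by 0.67 to 1.36. With zinc against without, these gave -0.83 (adjusted p = 0.0116), -0.48 (adjusted p = 0.199) and -0.32 (adjusted p = 0.0699), adjusted over all probe sets, and only the first was called. Apaf1, the scaffold of the apoptosome, read 5.50, 5.43, 5.70 and 5.65 in wild type, 7.72, 7.11, 7.05 and 7.43 in the mutant, and 6.00, 7.08, 6.76 and 6.10 with zinc. All zinc arrays were above wild type, and zinc replicate 2 reached the mutant range. The changes were 1.76 in the mutant (adjusted p = 5.88e-05) and -0.84 with zinc (adjusted p = 0.0342), the second of which was lost without mutant replicate 1 or 4 or zinc replicate 1 or 4. The second probe set of Apaf1 gave 0.77 (adjusted p = 0.00601) and -0.46 (adjusted p = 0.146), the latter not called. Zmat3, a zinc finger protein that binds RNA, had narrow groups, at 7.13 to 7.25 in wild type, 8.23 to 8.39 in the mutant and 7.27 to 7.97 with zinc. It rose by 1.13 (SE 0.13, adjusted p = 3.62e-05) and fell by 0.63 with zinc (adjusted p = 0.0117).

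Smaller rises were found for Fas, the death receptor (0.53, adjusted p = 0.00156), Ei24, a protein of the endoplasmic reticulum (0.41, adjusted p = 0.00166), and Bbc3, the BH3-only protein PUMA (0.40, adjusted p = 0.019). Fas ranged from 7.59 to 7.89 in wild type, 8.12 to 8.45 in the mutant and 7.72 to 8.04 with zinc, and the mutant stood apart from both. Its fall with zinc, 0.39 on the log2 scale (adjusted p = 0.0307), and that of Ei24, 0.29 (adjusted p = 0.037), were each lost as calls without mutant replicate 1, 3 or 4 or zinc replicate 1, 3 or 4. Bbc3 read 7.89, 7.54, 7.69 and 7.96 in wild type, 7.93, 8.24, 8.14 and 8.36 in the mutant, and 8.33, 8.36, 8.13 and 8.39 with zinc. It was the 1 risen target that overlapped between wild type and mutant, and the 1 whose zinc mean exceeded the mutant mean. Its rise in the mutant was lost in 6 alternatives, among them those without wild type replicate 2 or 3 and without mutant replicate 2 or 4, while its zinc arrays were 0.53 above wild type (adjusted p = 0.0102) in a call lost only under the required change of 1 log2 unit.

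The BH3-only gene Pmaip1, the death receptor gene Tnfrsf10b, Perp, which encodes a membrane protein of desmosomes, and Epha2, an ephrin receptor, were not called in any comparison. Pmaip1 was below the lower quartile of probe sets in each group, with means of 3.60, 3.47 and 3.37, so these arrays hold only a bound on its change. Perp was well measured, at 10.84 to 11.10 in wild type, 10.55 to 11.16 in the mutant and 11.06 to 11.29 with zinc, and its change of -0.05 (SE 0.12) turned to 0.08 without mutant replicate 1. Epha2 reached 8.63 in mutant replicate 2 and ranged from 7.49 to 8.13 in the other 11 arrays. Tnfrsf10b ranged from 4.84 to 5.30 in wild type and 5.18 to 5.52 in the mutant, a change of 0.25 (SE 0.13, adjusted p = 0.169).

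**Figure D4:**
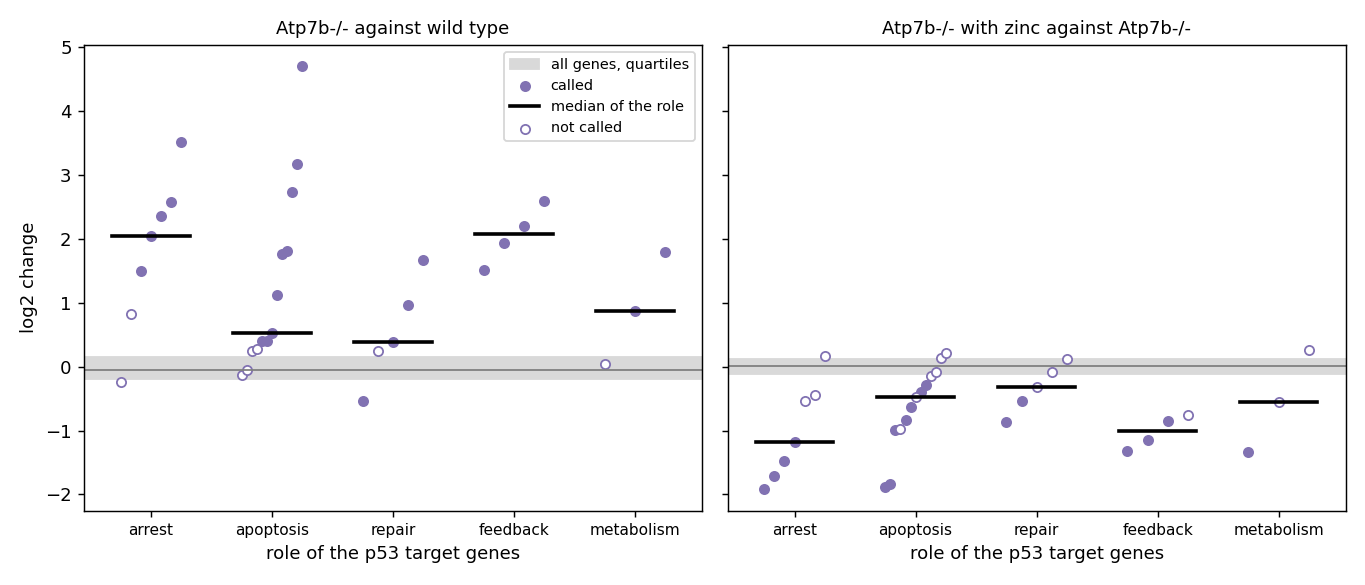
Each point is the log2 change of 1 target, filled where called, set out by role, for Atp7b-/- against wild type (left) and for zinc against no zinc within Atp7b-/- (right); black lines are role medians, and the grey line and band are the median and quartiles of all genes. Arrest and feedback medians lie near 2 on the left and near -1 on the right, while repair genes lie closest to the band.

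The repair genes had the lowest median change of the 5 roles and included the 1 target that fell. Polk, a translesion DNA polymerase, read 6.76, 6.71, 6.91 and 6.75 in wild type, 8.59, 8.21, 8.46 and 8.54 in the mutant, and 7.23, 8.21, 7.92 and 6.96 with zinc. All zinc arrays exceeded wild type, replicate 4 only slightly, and zinc replicate 2 equalled mutant replicate 2. It rose 3.17-fold (log2 1.67, SE 0.21, adjusted p = 8.77e-05) and fell by 0.87 with zinc (adjusted p = 0.0285), a call lost without mutant replicate 1, 3 or 4 or zinc replicate 1 or 4. The second probe set of Polk gave 0.82 in the mutant (adjusted p = 0.00776) and -0.22 with zinc against without (adjusted p = 0.572), the latter not called. Ercc5, the endonuclease that cuts on the 3′ side of a lesion in nucleotide excision repair, ranged from 7.86 to 8.06 in wild type, 8.80 to 9.13 in the mutant and 8.12 to 8.69 with zinc. It rose by 0.97 (SE 0.13, adjusted p = 0.000151), and its 3 groups did not overlap. Its fall with zinc, 0.54 on the log2 scale (adjusted p = 0.0274), was lost as a call without mutant replicate 1 or 3 or zinc replicate 1 or 4.

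Xpc and Ddb2 both recognise damage at the start of nucleotide excision repair, and they moved in opposite directions. Xpc read 7.28, 7.26, 7.35 and 7.47 in wild type, 7.91, 7.58, 7.61 and 7.80 in the mutant, and 7.40, 7.53, 7.45 and 7.29 with zinc, a rise of 0.38 in the mutant (SE 0.09, adjusted p = 0.00776). Ddb2 read 6.35, 6.80, 6.53 and 6.37 in wild type, 5.99, 5.99, 5.98 and 5.95 in the mutant, and 6.20, 5.89, 6.32 and 5.97 with zinc. All mutant arrays, treated or not, were below the lowest wild type array, and the 4 untreated mutant arrays were close together. The fall was 0.54 on the log2 scale (SE 0.11, adjusted p = 0.00362), and with zinc the level was still 0.42 lower than wild type (log2 -0.42, adjusted p = 0.0385), a call lost in 12 alternatives; its second probe set gave -0.27, not called. DDB2 is known as a p53 target from human cells. Rrm2b, the p53-inducible subunit of ribonucleotide reductase, was not called, with a change of 0.24 (SE 0.12, adjusted p = 0.152) and wild type replicate 1 at 5.87 under the other 3 wild type arrays at 6.29 to 6.34.

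The 4 feedback genes rose in the mutant and were still above wild type with zinc. Mdm2, the ubiquitin ligase that degrades p53, read 9.13, 9.39, 9.21 and 9.18 in wild type, 10.98, 10.46, 10.61 and 10.91 in the mutant, and 9.57, 10.40, 10.08 and 9.49 with zinc. The 3 groups did not overlap, although zinc replicate 2 came close to mutant replicate 2. It rose 2.85-fold (log2 1.51, SE 0.18, adjusted p = 4.45e-05) and fell by 0.85 with zinc (adjusted p = 0.0125). The other probe sets of Mdm2 gave 1.14 (adjusted p = 0.00438) and 0.16 (adjusted p = 0.364) in the mutant. With zinc, the first of these was not called against no zinc (-0.54, adjusted p = 0.232) or against wild type (0.60, adjusted p = 0.179), adjusted over all probe sets. The fall of Mdm2 with zinc was also lost with the mean of all probe sets. The probe set giving 0.16 is the 1 left when probe sets with names ending in _s_at, _x_at or _a_at are set aside. With it Mdm2 was not called in any comparison. The probe set left was dim in wild type, with a mean of 4.41, so it gives only a bound on the change. Those set aside for Mdm2 end in _a_at, and whether they cross-hybridise was not tested.

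Ccng1, cyclin G1, which binds Mdm2 and a phosphatase subunit, read 8.87, 9.39, 8.98 and 9.22 in wild type, 11.77, 11.59, 11.77 and 11.69 in the mutant, and 9.89, 11.09, 10.98 and 9.57 with zinc. The groups were separate, and its 3 probe sets rose by 2.35 to 2.59. It rose 6.02-fold (log2 2.59, SE 0.28, adjusted p = 1.63e-05), fell by 1.32 with zinc (adjusted p = 0.0117) and stayed 2.41-fold above wild type (adjusted p = 0.0122). Gtse1, a microtubule-binding protein that carries p53 out of the nucleus, read 5.58, 5.79, 5.51 and 6.02 in wild type, 8.00, 7.35, 7.56 and 7.74 in the mutant, and 6.14, 6.79, 7.03 and 6.07 with zinc. Its change was 1.94 in the mutant (SE 0.21, adjusted p = 1.84e-05) and -1.15 with zinc (adjusted p = 0.00543). Zinc replicates 1 and 4 were just above wild type replicate 4, the highest wild type array. Trp53inp1, a stress protein that enhances p53 activity, read 9.66, 9.91, 10.36 and 10.49 in wild type, 12.83, 12.04, 12.05 and 12.29 in the mutant, and 11.09, 11.95, 11.74 and 11.44 with zinc. It rose 4.59-fold (log2 2.20, SE 0.23, adjusted p = 1.19e-05) and with zinc remained 2.74-fold above wild type (adjusted p = 0.00124), in all 4 arrays. The difference between the mutant groups, -0.75, was not called (adjusted p = 0.0666).

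Among the metabolic targets, Ddit4l and Sesn2, which restrain mTORC1 signalling, rose, and the sestrin Sesn1 did not. Ddit4l read 5.78, 5.77, 5.66 and 5.70 in wild type, 8.17, 7.29, 7.40 and 7.27 in the mutant, and 5.86, 6.66, 6.74 and 5.52 with zinc, so zinc replicate 4 was under every wild type array. It rose by 1.80 (SE 0.26, adjusted p = 0.000204) and fell by 1.34 with zinc (adjusted p = 0.00751), and its other probe sets rose by 0.78 and 2.17. With zinc against without, these gave -0.65 (adjusted p = 0.0668), not called, and -1.72 (adjusted p = 0.0015), adjusted over all probe sets. Sesn2 ranged from 7.06 to 7.66 in wild type, 7.99 to 8.40 in the mutant and 7.30 to 8.00 with zinc, a rise of 0.87 (SE 0.17, adjusted p = 0.00244). Sesn1 changed by 0.04 in the mutant (SE 0.10, adjusted p = 0.794), and all 4 of its zinc arrays, at 9.04 to 9.35, stood above the wild type arrays, at 8.80 to 8.98, in a difference that was not called (0.30, adjusted p = 0.0875). Its other probe sets gave 0.68 (adjusted p = 0.0944), 0.63 (adjusted p = 0.0372) and -0.07 (adjusted p = 0.748) for this difference, adjusted over all probe sets. Sesn1 was called above wild type in 1 of the 25 alternatives, that which used the probe set giving 0.63.

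Within Atp7b-/- mice, zinc was accompanied by lower levels of many of the same targets. Of the 32 targets, 17 fell and 0 rose by limma, where 4.84% of all genes fell and 1.7% rose; at an unadjusted p under 0.05, 22 were lower and 1, Sesn1, was higher. No target rose in any of the 25 alternatives either. The median change was -0.59, against 0.01 over all genes, and the arrays of 19 targets did not overlap in the downward direction, as for 9.39% of all genes; those of Ptprv alone were apart in the upward direction, as for 5.93%. Called falls of at least 1 log2 unit were seen in 9 targets and in 0.918% of all genes, and calls in either direction covered 6.54% of all genes. By role, 4 of 7 arrest, 7 of 13 apoptosis, 2 of 5 repair, 3 of 4 feedback and 1 of 3 metabolic genes fell. The 17 were all among the 23 that had risen in the mutant; the untreated mutant arrays enter both comparisons, so this overlap is not independent of the rise. Cdkn1a, Btg2, Psrc1, Aen, Zmat3, Ccng1, Gtse1 and Ddit4l fell in each alternative other than the required change of 1 log2 unit, under which 0 of the 17 held. The count was 10 without mutant replicate 1, 10 without zinc replicate 1 and 9 without zinc replicate 4.

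Against wild type, zinc-treated mutants had 11 targets higher and 1 lower, where 4.89% of all genes were higher and 2.73% lower, and the median change was 0.51, against -0.02. The 11 were all 4 feedback genes, 5 apoptosis genes (Bbc3, Aen, Apaf1, Zmat3 and Ddias), Cdkn1a and Polk, and the lower target was Ddb2; calls in either direction covered 7.62% of all genes. Arrays were apart upward for 13 targets and downward for 1, as for 7.88% and 6.45% of all genes. Called differences of at least 1 log2 unit were seen upward in 4 targets (Cdkn1a, Ddias, Ccng1 and Trp53inp1) and downward in 0, against 1.07% and 0.187% of all genes. Taking both comparisons, 8 of the 23 risen targets were lower than without zinc and still above wild type, 9 were lower and not called against wild type, 3 (Bbc3, Ddias and Trp53inp1) were above wild type and not called against the untreated mutant, and 3 (Gadd45a, Xpc and Sesn2) were called in neither. Of all 2608 genes that rose in the mutant, these classes held 259, 502, 541 and 1300 in the same order. The share of the mutant rise that remained with zinc, on the log2 scale, ran from 19% for Xpc and 25.9% for Ddit4l over 45.5% for Cdkn1a and 48.9% for Ccng1 to 66% for Trp53inp1, 69.8% for Gadd45a and 79.5% for Ddias, with Bbc3 at 132%. These shares, low and high, moved when 1 zinc array was left out. Xpc gave 9.28% without zinc replicate 2 and 30% without replicate 4. Ddit4l gave 15.8% without replicate 3 and 38.4% without replicate 4. Gadd45a gave 51.6% without replicate 2 and 88.6% without replicate 4. The count of 12 calls fell to 7 without wild type replicate 1, 5 without wild type replicate 2, 6 without wild type replicate 3, 5 without zinc replicate 2 and 6 without zinc replicate 3. Apaf1, Zmat3, Polk, Mdm2 and Gtse1 each lost the call without wild type replicate 1 or 2 or zinc replicate 2 or 3, and Zmat3, Polk and Mdm2 also without any other 1 wild type array. Bbc3, Ddias, Ccng1 and Trp53inp1 held in each alternative other than the required change, under which Ddias alone held, and Aen in each but that and the mean of all probe sets.

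The zinc-treated arrays were not alike. The median of the 23 risen targets, each taken as its level minus the wild type mean, was 0.34, 1.43, 1.14 and 0.25 in zinc replicates 1 to 4, against -0.07 to 0.04 in wild type and 1.60 to 2.04 in the untreated mutant. Replicates 2 and 3 were both above replicates 1 and 4 in 20 of the 23, or 87%, in 23% of all genes that rose in the mutant and in 18.8% of all genes. Replicate 2 was above every wild type array for 23 of the 23 and replicate 3 for 22, and replicates 1 and 4 were so for 16 (69.6%) and 14 (60.9%). Over all genes that rose in the mutant, these shares were 73.7% and 63.5% in replicates 2 and 3 and 68.9% and 70.1% in replicates 1 and 4, so those 2 arrays were close to or under the share of all risen genes. Feedback genes gave medians of 0.60, 1.51, 1.47 and 0.40 in the 4 zinc arrays, and arrest genes 0.25, 1.59, 0.88 and 0.54.

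Zinc replicates 2 and 3 also had higher levels of transcripts known as markers of another tissue, the pancreas. The origin of these transcripts was not tested. The mean level of 9 measured of 12 pancreatic acinar markers was 9.70 in zinc replicate 2 and 7.15 in zinc replicate 3, against 5.88 in both other zinc arrays, 5.74 to 5.96 in wild type and 5.65 to 5.87 in the untreated mutant. Cpa1, a pancreatic carboxypeptidase, read 8.83 and 5.21 in these arrays and 3.68 to 4.35 in the other 10. When zinc replicates 2 and 3 were left out, 18 targets were lower with zinc, where 457 of all 18193 genes were. Of these targets 16 were among the 17, and the median change was -0.89. Ddias and Sesn2 joined and Ei24 dropped out. Against wild type, 5 targets were then higher (Bbc3, Aen, Ddias, Ccng1 and Trp53inp1) and 0 lower, with 0.23 as the median. Of all genes, 523 were then higher and 176 lower. Because replicates 2 and 3 were above 1 and 4 in 20 of the 23 risen targets, leaving them out lowers the zinc means by itself. The shift is therefore no test of the part of the pancreatic markers. The comparison of untreated mutant and wild type kept the same 24 calls.

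**Figure D5:**
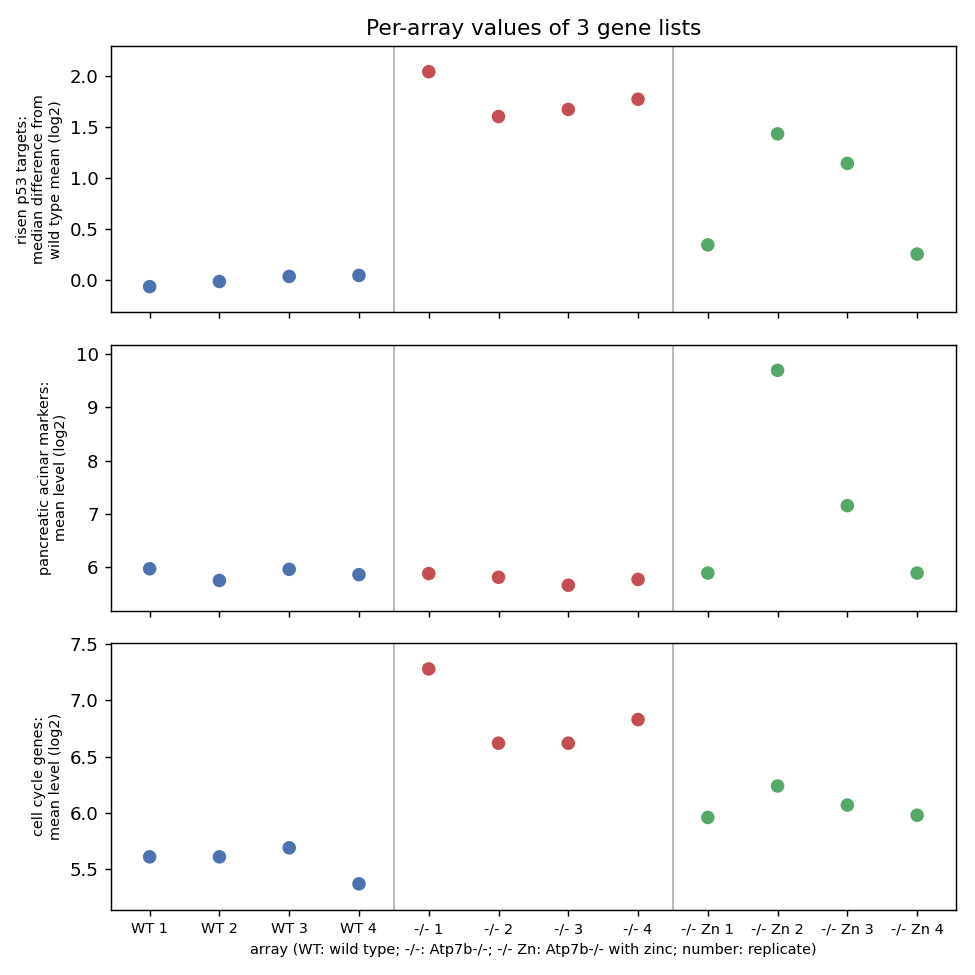
Points give, for each of the 12 arrays, the median difference of the 23 risen p53 targets from wild type (top), the mean level of 9 pancreatic acinar markers (middle) and the mean level of 30 cell cycle genes (bottom), all in log2 units. Zinc replicates 2 and 3 are high in the top and middle panels, and Atp7b-/- replicate 1 is highest in the top and bottom panels.

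In the untreated mutant, replicate 1 was the highest of the 4 arrays for 17 of the 23 risen targets, 73.9%, against 40.7% of all genes that rose. Its median correlation with the other mutant arrays was 0.991, against 0.996 for each of them. Without it the same 24 targets were called against wild type, with a median change of 1.27.

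Other measures moved with the groups. Of 31 listed cell cycle genes 30 were measured; 16 rose (53.3%) and 1 fell (3.33%) in the mutant, against 14.3% and 10.3% of all genes. With zinc 15 fell (50%, against 4.84%), and 10 were above wild type (33.3%, against 4.89%). Their mean level was 5.37 to 5.69 in wild type, 6.62 to 7.28 in the mutant and 5.96 to 6.24 with zinc, and zinc replicates 2 and 3 held the top of that last range at 6.24 and 6.07. Birc5, an inhibitor of apoptosis used in mitosis, rose by 4.60 and was 3.57 lower with zinc (log2 -3.57, adjusted p = 7.94e-05), and Cdc20, an activator of the anaphase-promoting complex, rose by 3.95 and stayed 2.83 above wild type. Ube2c, Cdk1, Cenpa, Aurka, Nusap1 and Tpx2, which act in mitosis, rose by 1.95 (Tpx2) to 3.40 (Cdk1), fell with zinc, with changes from -0.41 (Cenpa) to -1.73 (Cdk1), and stayed above wild type, while Bub1 and Aurkb, also mitotic, rose by 3.28 and 1.43, fell with zinc (changes of -2.85 and -1.33) and were not called against wild type. Macrophage markers had 7 of 10 lower in the mutant (70%, against 10.3% of all genes). Their mean levels were 7.70 to 8.63 in wild type, 7.25 to 8.25 in the mutant and 7.45 to 7.80 with zinc. In whole liver, fewer cells of a type and less RNA per cell cannot be told apart. Of 6 measured hepatocyte markers 1 fell in the mutant (16.7%, against 10.3% of all genes), Hnf4a (-0.25, adjusted p = 0.0233). For 3 of the 6 the mutant arrays were all below wild type, as for 12.1% of all genes. The mean of the 6 was 14.24 to 14.25 in wild type, 14.15 to 14.23 in the mutant and 14.18 to 14.21 with zinc. Mean levels of 7 endothelial markers were 7.50 to 7.61, 7.30 to 7.56 and 7.44 to 7.60 in the same order. Of these, Pecam1, Clec4g and Lyve1 fell in the mutant (42.9%, against 10.3% of all genes). Tek rose (1.54, adjusted p = 0.000204), a share of 14.3%, as for all genes. The stellate markers Col3a1 and Reln, 2 of 8, rose with zinc (25%, against 1.7% of all genes). The stellate mean was 7.93 to 8.14 with zinc against 7.57 to 7.90 without. Of 6 measured cholangiocyte markers 1, Krt19, rose in the mutant (16.7%, against 14.3% of all genes), and their median change was 0.04. These marker genes were named after their values were seen. The 3′ minus 5′ signal of the housekeeping control probe sets, a sign of RNA quality, was 0.62 to 0.78 in wild type, 0.79 to 0.88 in the mutant and 0.54 to 0.74 with zinc. The part of these measures in the changes of the p53 targets was not tested.

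Of 26 listed regulators of p53, 25 were measured, Trp53 itself not among them; 5 rose (20%) and 3 fell (12%) in the mutant, with a median change of 0.05. These shares are near those of all genes, 14.3% and 10.3%. Chek2, a checkpoint kinase that phosphorylates p53, read 5.66, 5.57, 6.05 and 5.93 in wild type, 7.85, 7.78, 7.81 and 7.94 in the mutant, and 7.15, 7.42, 7.31 and 7.08 with zinc. Its 3 groups were separate, and zinc replicates 2 and 3 were again the highest of their group. It rose by 2.04 (adjusted p = 2.24e-08), fell by 0.61 with zinc (adjusted p = 0.0055) and stayed 1.44 above wild type (adjusted p = 2.09e-06). Atr, the kinase that senses stalled replication, rose by 1.25 (adjusted p = 1.18e-07), fell by 0.46 with zinc (adjusted p = 0.00384) and stayed 0.79 above wild type. Its sister kinase Atm, which responds to double-strand breaks, fell by 0.47 (adjusted p = 0.0445) and was 0.64 higher with zinc than without (adjusted p = 0.0301). Mdm4, the partner of Mdm2, rose by 0.47 (adjusted p = 0.0242), Trp53bp1, a scaffold at DNA breaks, rose by 0.72 (adjusted p = 0.00405) and was -0.73 with zinc against without (adjusted p = 0.0121), and Chek1 gave 0.04 and was not called. Ppp1r13b, a p53-binding cofactor, rose by 0.53 (adjusted p = 0.00466), Pias1, a SUMO ligase, fell by 0.35 (adjusted p = 0.00242), and the kinase gene Hipk2, named after its values were seen, fell by 0.30 (adjusted p = 0.0496). With zinc, 1 regulator rose (4%) and 4 fell (16%), the last of them Rchy1, a ubiquitin ligase for p53, by 0.33 (adjusted p = 0.0288), against 1.7% and 4.84% of all genes. Chek2 and Atr were the 2 above wild type with zinc, 8% against 4.89%, and the phosphatase gene Ppm1d, at 0.36, was not called (adjusted p = 0.13).

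A further list of p53 pathway genes, 46 measured of 51, had 9 higher (19.6%) and 6 lower (13%) in the mutant and a median change of 0.01; these shares too are near the 14.3% and 10.3% of all genes. Ckap2, a spindle protein, rose most (2.36, adjusted p = 0.000689), at 5.74, 5.07, 4.90 and 5.16 in wild type and 8.44, 7.03, 7.63 and 7.19 in the mutant. Its zinc arrays read 5.69, 6.88, 7.44 and 5.67, with replicates 2 and 3 in or near the mutant range and 1 and 4 in the wild type range. Lpin1, a phosphatidate phosphatase (1.62, adjusted p = 0.002), Ccng2, cyclin G2 (1.25, adjusted p = 0.00348), and Dcxr, a carbonyl reductase (0.85, adjusted p = 0.000114), also rose, as did Tap1, a peptide transporter (0.78, adjusted p = 0.0016), and Casp8, the initiator caspase of death receptors, fell by 0.65 (adjusted p = 0.000917). With zinc 2 of the 46 rose (4.35%), Pltp and Sco2, and 4 fell (8.7%), Dcxr, Rap2b, Dgka and Tigar, against 1.7% and 4.84% of all genes; Dcxr fell most, by 0.75 (adjusted p = 0.00153). Against wild type 2 were higher with zinc (4.35%, against 4.89% of all genes), Ccng2 (1.55, adjusted p = 0.00223) and the thiamine transporter gene Slc19a2 (0.48, adjusted p = 0.0185), and 1, Tigar, a regulator of glycolysis, was lower (-0.30, adjusted p = 0.0377), 2.17% against 2.73%; Prkab2, a subunit of AMP-activated kinase, at -0.28, was not called (adjusted p = 0.153).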

How the data were processed

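RNA from 12 liver samples was hybridised to Affymetrix GeneChip mouse arrays. The authors deposited 1 table of log2 values for 45101 probe sets, from 2.22 to 15.24; no source used here names the summary method or background correction. Array medians were 5.63 to 5.71, while lower quartiles were 4.41 to 4.44 in Atp7b-/- and 4.44 to 4.54 in wild type; other scalings were tried as alternatives. GEO's platform annotation gave 34945 probe sets exactly 1 gene, 932 several and 9160 none; 64 controls were left out. Each of 18193 genes was represented by its probe set with the highest mean, and 18 of the 32 targets had over 1 probe set (60 in all). limma 3.58.1 in R 4.3.3 (lmFit, contrasts.fit, eBayes) fitted the 3 groups at once, two-sided, with Benjamini-Hochberg adjustment over all genes. The code was tested on simulated data with independent noise for each gene and array. Such data do not hold the differences between arrays seen here, so that test covers the code only. Precision is limited by 4 arrays a group. The genes named are all listed targets, Atp7b, Mdm4, Atm, Chek1, Chek2 and, of each pathway list, up to 6 genes with the smallest adjusted p in each comparison; others are said to be named after their values were seen. The members and gene lists were chosen with earlier results of these data known. Alternatives changed the normalization, the probe set, a filter on dim genes, the variance model, a required change of 1 log2 unit, the groups in the fit, a replicate block and the arrays used.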

Additional observations from a re-analysis of the deposited data

Results flagged for a closer look

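In 96 groups of 4 arrays, 3 held an array that stood apart by Dixon's gap test; chance alone gives about 1 in 20 groups. Zmat3 in wild type replicate 1 was 7.25, against 7.13 to 7.14 in the other wild type arrays. Rrm2b in wild type replicate 1 was 5.87, against 6.29 to 6.34. Ddit4l in Atp7b-/- replicate 1 was 8.17, against 7.27 to 7.40 in the other mutant arrays. The explanations of these values were not tested.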

How the results depend on the processing

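Of the 24 targets called in the mutant, 21 kept their call in each alternative but the required change of 1 log2 unit, and Ddb2 in each of these that gave it a value; 8 of 17 did so for zinc against no zinc, and 4 of 12 for zinc against wild type. With a required change of 1 log2 unit, targets called in these comparisons numbered 10, 0 and 1, and all genes 208, 13 and 53, against 4480, 1190 and 1386; the alternative asks for a larger change. With only the groups compared in the fit, 11 targets were called for zinc against no zinc and 7 for zinc against wild type. Array weights gave 1861 genes for zinc against no zinc. Without zinc replicates 2 and 3, 614 genes were called for zinc against no zinc and 699 for zinc against wild type, with 5 targets in the latter, and without mutant replicate 1 as well, 598 and 881, again with 5 targets; fewer arrays enter these fits. Leaving out 1 array at a time gave 23 to 25 targets and 3292 to 4495 genes for the mutant against wild type, 9 to 18 and 689 to 1158 for zinc against no zinc, and 5 to 15 and 932 to 1639 for zinc against wild type. Higher genes made up 58.2% of all calls in the mutant, 49.6% after quantile normalization and 68.1% after median centring, and 26% for zinc against no zinc, 40% after quantile normalization. The direction turned for 6 uncalled targets, and the cause was not tested. In the mutant, Pmaip1 gave -0.22 to 0.03 over the fits with 1 array left out, Perp -0.12 to 0.08 over these, 0.02 with array weights and 0.08 without zinc replicates 2 and 3 and mutant replicate 1, and Sesn1 -0.04 to 0.11 with 1 array left out and -0.06 after quantile normalization. With zinc against wild type, Tnfrsf10b gave -0.07 and Ddit4l -0.04 without zinc replicates 2 and 3, whether or not mutant replicate 1 was kept, and Rrm2b -0.16 with the probe set of highest variance. With the replicate number as a block, 24, 17 and 9 targets and 4449, 1171 and 1353 genes were called; the deviations of same-numbered arrays correlated at -0.13 to 0.237, so the numbers were not taken to pair the arrays. The dim probe sets of Pmaip1 and, in wild type, Eda2r limit what these arrays show of their changes.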
